A study of Homo sapiens with 28 samples.

Results

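Human neural progenitors cultured under the label CT1.0 for 8 days were compared with and without SOX1. In the knockout, genes of the dorsal neural tube and roof plate (ZIC1, GDF7, MSX2), of the midbrain (OTX2, EN1) and of WNT signalling (WNT1, SP5) rose, while the ventral genes SHH and NKX6-2, netrin-1, several secreted WNT antagonists and the neural progenitor genes NES and VIM fell. The comparison rests on 4 libraries of the 28 in the series: 2 wild-type libraries numbered 1 and 2 (WT 1, WT 2) and 2 SOX1-/- libraries numbered 26 and 48 (KO 26, KO 48), chosen by genotype, culture label and day alone.

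All cells derive from H9, an established human embryonic stem cell line, and every group in the series comes from it. The WT CT1.0 group is wild type and the KO CT1.0 group carries SOX1-/-; both were collected on day 8 as neural progenitors derived from the stem cells, and the series asks what SOX1 does early in neural differentiation. The other groups used below are WT and KO at CT1.0 day 4, at CT0.4 day 8 and at IWP2 day 8, with 2 libraries each. IWP2 blocks the secretion of WNT ligands, whereas the sources used here neither spell out CT nor give a unit for its number. The labels do not say what the numbers 26 and 48 stand for, nor how SOX1 was disrupted, so the p-values below measure only the spread between these libraries, which may be technical.

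SOX1 belongs to the SOX B transcription factors and is one of the earliest markers of the neural plate. The neural tube is patterned along its dorsal to ventral axis by BMP and WNT ligands from the dorsal roof plate, opposed by sonic hedgehog from the ventral floor plate. Along its length, OTX2 marks the forebrain and midbrain, EN1, EN2, PAX2 and FGF8 mark the midbrain and the isthmus at its border with the hindbrain, and HOX genes mark the hindbrain and spinal cord. WNT signalling also shifts neural progenitors from anterior to more posterior identities.

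Expression was measured by sequencing poly(A) RNA and is given as TPM, a transcript abundance that corrects for transcript length and library total, so levels of different genes can be set side by side. Read depth cannot be recovered from TPM, so the counting error of single values is unknown. Of 58219 genes, 20167 reached 1 TPM in at least 2 of the 4 libraries and were tested with limma on log2(TPM + 1). That scale compresses the changes of weakly expressed genes. A gene is "called" at an adjusted p under 0.05; fold changes are KO minus WT on that log2 scale with their standard errors, and values are listed in the order WT 1, WT 2, KO 26, KO 48. In bulk RNA, fewer cells of a type and less of the RNA per cell cannot be told apart. The 4 libraries detected 19156 to 19592 genes at 1 TPM or more. Cytosolic ribosomal protein genes took 22.6% and 24.1% of the TPM in WT and 31.7% and 29% in KO. Of 82 tested, 66 were called higher and 2 lower, beside 6.65% and 15.3% of all genes. Far fewer were called higher without KO 26 or without WT 1. The rise in their share lowers the TPM of other genes, and its part in single results was not tested beyond the scaling that follows.

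In KO, 1342 genes (6.65% of those tested) were called higher and 3080 (15.3%) lower. After median-ratio scaling of the libraries, which moved the median change of all genes from -0.09 to 0.00, 3934 genes were called (19.5%), split as 1819 higher (9.02%) and 2115 lower (10.5%). The number of calls depended on single libraries: 4422 genes were called with all 4, but 1075 without KO 26, 1795 without WT 1 and 2836 without WT 2, against 4522 without KO 48. Of the 4422, 925 were called in each of those 4 fits. The spread was estimated over the 14 groups of all 28 libraries, and the call rests on that: with the 4 libraries alone, 0 genes were called by limma, and 5382 had an unadjusted p under 0.05. Both KO libraries lay above both WT libraries for 23.2% of the genes tested and below both for 37.6%, which is the background for the non-overlapping genes below. An exact permutation test of 2 against 2 libraries cannot give a p below 0.333.

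The targeted gene followed its labels. SOX1 stood at 72.1 and 79.4 TPM in WT and 1.14 and 2.77 TPM in KO (log2 fold change -4.76 ± 0.36 (SE), adjusted p = 2.62e-06), the most negative change in this comparison among genes named by size. Both KO libraries were far below both WT libraries, and the sources used here do not give the deleted part, so what the remaining signal stands for was not tested. Of the other SOX B genes, SOX21 (77.6 and 87 TPM in WT and 23.9 and 42 TPM in KO, log2 fold change -1.35 ± 0.26, adjusted p = 0.00177) and SOX3 (58.6 and 65.2 TPM in WT and 18.3 and 34.1 TPM in KO, log2 fold change -1.27 ± 0.26, adjusted p = 0.00243) also fell. SOX2, the SOX B gene shared with pluripotent cells, was not called at 216 and 239 TPM in WT and 174 and 216 TPM in KO (log2 fold change -0.23 ± 0.12, adjusted p = 0.191), and SOX14 was listed at 0 in all 4 libraries. The calls for SOX21 and SOX3 did not hold without KO 26 (adjusted p = 0.0593 and 0.0757).

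**Figure D1:**
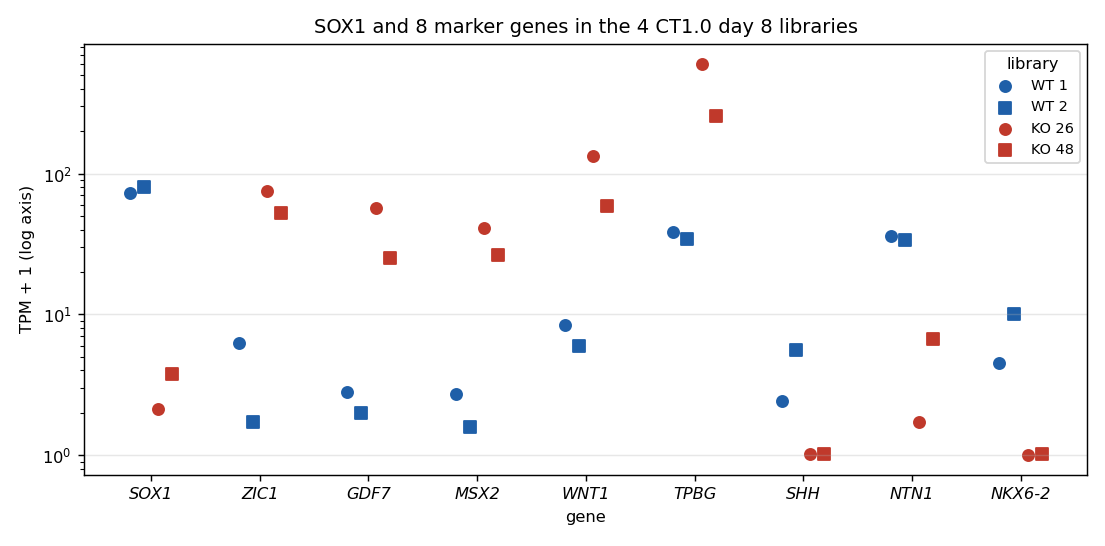
TPM + 1 on a log axis for SOX1 and 8 marker genes in each of the 4 CT1.0 day 8 libraries, blue for WT and red for KO, with 1 point per library. The 5 dorsal and WNT genes stand higher in both KO libraries, for example WNT1 at 132 and 57.6 TPM against 7.48 and 4.98 TPM, and SOX1, SHH, NTN1 and NKX6-2 stand lower.

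Dorsal neural tube genes gave the 3 highest fold changes among the genes named by size: ZIC1, GDF7 and MSX2. ZIC1, a zinc finger factor of the dorsal neural tube, stood at 5.23 and 0.728 TPM in WT and 74.4 and 51.3 TPM in KO (log2 fold change 4.26 ± 0.43, adjusted p = 1.56e-05). MSX2, a homeobox factor induced by BMP in the roof plate, stood at 1.74 and 0.597 TPM in WT and 40 and 25.6 TPM in KO (log2 fold change 3.98 ± 0.33, adjusted p = 4.55e-06). LMX1A, which specifies the roof plate, stood at 0.827 and 0.447 TPM in WT and 21.3 and 8.35 TPM in KO (log2 fold change 3.15 ± 0.38, adjusted p = 5.85e-05). For each of these 3 genes the libraries of the genotypes did not overlap, and WT levels were close to 1 TPM except for ZIC1 in WT 1. The neighbouring ZIC4 rose from 0.588 and 0.25 TPM to 21.9 and 11.8 TPM (log2 fold change 3.6 ± 0.31, adjusted p = 4.81e-06); the annotated spans of ZIC1 and ZIC4 overlap on opposite strands of chromosome 3 in GENCODE 29, and the sources used here do not say whether the counting used strand; its effect on these 2 genes was not tested. ZIC2 (86.9 and 87.7 TPM in WT and 215 and 170.4 TPM in KO) and its neighbour ZIC5 on chromosome 13 (8.39 and 6.74 TPM in WT and 32.8 and 20.8 TPM in KO) rose by 1.12 and 1.67. Further dorsal factors also rose: MSX1 by 2.58, PAX3 by 2.5, LMX1B by 1.78, OLIG3 by 1.42 and PAX7 by 1.39.

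Signals secreted by the roof plate rose with them. GDF7, a BMP family ligand made by roof plate cells, stood at 1.8 and 0.998 TPM in WT and 55.8 and 24.1 TPM in KO (log2 fold change 4.0 ± 0.28, adjusted p = 1.58e-06). WNT1, the ligand of the dorsal midline and of the isthmus, stood at 7.48 and 4.98 TPM in WT and 132 and 57.6 TPM in KO (log2 fold change 3.63 ± 0.37, adjusted p = 1.76e-05). Both KO libraries lay above both WT libraries for each ligand, and KO 26 stood at more than 2 times KO 48. WNT3A rose by 1.75, and the R-spondins RSPO1, RSPO2 and RSPO3, secreted amplifiers of WNT signalling, rose by 1.72, 2.01 and 1.77. In all, 18 of 20 dorsal and roof plate genes were tested, and 18 were called higher and 0 lower, beside 6.65% called higher among all genes; their median log2 fold change was 1.98, beside -0.09 over all genes tested. ZIC4, LMX1A, PAX7 and RSPO3 were under 1 TPM in both WT libraries and passed the filter through the KO libraries alone, so the count and the median describe the tested genes and support nothing further. The untested members were GDF6 and ATOH1, with ATOH1 at 0.131 and 0.105 TPM in WT and 2.17 and 0.992 TPM in KO. Of the 18, 16 were called in each fit that left out 1 library. The call for RSPO2 did not hold without KO 26 (adjusted p = 0.11). With a pseudocount of 0.1, OLIG3 was not called.

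4 stretches before the start sites of genes that moved are shown as context for where these genes begin, with the marker genes ZIC1, WNT1 and SHH and the WNT target SP5. They are the 250 bases upstream of each RefSeq start on GRCh38.p14, written 5′ to 3′ on the gene's strand. Capitals mark ACAAT or its reverse complement ATTGT, the core letters bound by SOX factors, in ZIC1, WNT1 and SHH, and CTTTGA or TCAAAG, the core letters bound by the WNT effectors TCF and LEF, in SP5.
ZIC1, chr3:147409115-147409364, plus strand: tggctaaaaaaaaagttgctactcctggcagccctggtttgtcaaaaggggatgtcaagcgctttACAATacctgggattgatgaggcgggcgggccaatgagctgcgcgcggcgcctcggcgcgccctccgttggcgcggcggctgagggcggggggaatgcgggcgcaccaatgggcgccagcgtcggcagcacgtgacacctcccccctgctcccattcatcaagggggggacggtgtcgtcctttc
WNT1, chr12:48978072-48978321, plus strand: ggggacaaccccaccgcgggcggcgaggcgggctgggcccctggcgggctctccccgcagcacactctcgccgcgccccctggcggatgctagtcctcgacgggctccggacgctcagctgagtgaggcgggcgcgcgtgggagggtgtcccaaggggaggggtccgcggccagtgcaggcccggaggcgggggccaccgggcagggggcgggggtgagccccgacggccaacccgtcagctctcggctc
SHH, chr7:155812464-155812713, minus strand: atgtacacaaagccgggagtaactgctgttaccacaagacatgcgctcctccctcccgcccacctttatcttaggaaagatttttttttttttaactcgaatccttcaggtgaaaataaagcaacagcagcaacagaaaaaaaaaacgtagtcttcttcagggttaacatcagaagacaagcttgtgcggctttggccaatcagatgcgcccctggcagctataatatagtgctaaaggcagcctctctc
SP5, chr2:170715087-170715336, plus strand: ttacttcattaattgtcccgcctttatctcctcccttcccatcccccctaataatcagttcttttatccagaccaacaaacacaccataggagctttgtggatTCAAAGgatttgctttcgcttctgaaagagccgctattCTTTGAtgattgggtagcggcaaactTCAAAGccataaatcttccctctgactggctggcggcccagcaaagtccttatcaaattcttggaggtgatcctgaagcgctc
ACAAT on either strand was found 1 time in the ZIC1 window, 1 time in the SP5 window, where it is not marked, and 0 times in the WNT1 and SHH windows. Of all 35116 windows of this length, 24.6% hold it. CTTTGA on either strand occurred 3 times in the SP5 window and is in 11.2% of all windows. Of the 8 marker genes, 6 are in the RefSeq promoter table, and of the 5 with a single window, 1 held ACAAT and 0 held CTTTGA. These are matches of letters in 1 window, not measured binding.

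BMP ligands and the response gene ID1 rose, and no BMP receptor of the list was called. BMP4 stood at 0.787 and 0.466 TPM in WT and 14.5 and 6.17 TPM in KO (log2 fold change 2.7 ± 0.42, adjusted p = 0.000402), and BMP2 at 2.21 and 1.39 TPM in WT and 14.1 and 6.92 TPM in KO (log2 fold change 1.98 ± 0.28, adjusted p = 0.000207). ID1, an inhibitor of basic helix-loop-helix factors and a direct BMP target, stood at 10.8 and 10.5 TPM in WT and 111 and 62.2 TPM in KO (log2 fold change 2.86 ± 0.28, adjusted p = 1.22e-05). For each of these 3 the KO libraries lay above the WT libraries. BMP5, ID2 and the secreted BMP antagonists NOG and CHRD rose by 1.12, 0.88, 0.82 and 0.96. The call for BMP5 did not hold without KO 26 (adjusted p = 0.0583), and the calls for ID2 and NOG did not hold without KO 26 or WT 2 (highest adjusted p = 0.18 and 0.178). The call for CHRD did not hold without KO 26, KO 48, WT 1 or WT 2 (highest adjusted p = 0.242). NOG and CHRD were also not called with a pseudocount of 0.1. ID3, another BMP target, was not called at 79.96 and 107 TPM in WT and 90.1 and 88.8 TPM in KO, nor was the ligand BMP7 at 62.1 and 51.3 TPM in WT and 46.1 and 44.7 TPM in KO. Of 18 tested members of the BMP list, 7 were called higher and 0 lower, beside 6.65% and 15.3% of all genes, with a median of 0.10. Fewer of the 7 were called without KO 26 or without WT 2. BMP4 was under 1 TPM in both WT libraries and passed the filter through the KO libraries alone. The uncalled receptors were BMPR1A, BMPR1B, BMPR2 and ACVR1.

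SHH, NTN1 and NKX6-2 were among the ventral genes that fell in KO, and DBX1, listed with them, fell too. SHH, the floor plate ligand, stood at 1.44 and 4.6 TPM in WT and 0.0155 and 0.0161 TPM in KO (log2 fold change -1.86 ± 0.39, adjusted p = 0.00291). The call for SHH did not hold without WT 2 (adjusted p = 0.0504). NTN1, the guidance cue netrin-1 of the floor plate and ventricular zone, stood at 34.9 and 32.7 TPM in WT and 0.718 and 5.73 TPM in KO (log2 fold change -3.36 ± 0.44, adjusted p = 0.00011). NKX6-2, a homeobox factor of ventral progenitors, stood at 3.48 and 9.0 TPM in WT and 0 and 0.0232 TPM in KO (log2 fold change -2.73 ± 0.31, adjusted p = 3.25e-05). NTN1 was thus the one of these 3 markers with a level above 32 TPM in both WT libraries, and KO 48 kept more of it than KO 26. DBX1, a homeobox factor of the middle of the neural tube, stood at 12.4 and 14.7 TPM in WT and 0.088 and 2.45 TPM in KO (log2 fold change -2.9 ± 0.44, adjusted p = 0.000365). Of 17 genes in the ventral list, which includes DBX1, 8 were tested, and 5 were called lower and 0 higher, beside 15.3% called lower among all genes. SHH and NKX6-2 were under 1 TPM in both KO libraries and passed the filter through the WT libraries alone. The count therefore describes the tested genes and supports nothing further. The floor plate factor FOXA2 was at 0.56 and 1.44 TPM in WT and at 0 and 0.028 TPM in KO, below the filter, as were NKX2-2, OLIG2 and 6 others. SULF1, SPON1 and NKX6-1 were tested and not called, SULF1 at 65.7 and 50.7 TPM in WT and 79.8 and 56 TPM in KO.

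Among SHH pathway genes GLI1, PTCH1 and GLI2 fell, and the co-receptors CDON and BOC rose. GLI1, a transcription factor and direct target of the pathway, stood at 5.65 and 4.8 TPM in WT and 0.0468 and 0.594 TPM in KO (log2 fold change -2.27 ± 0.44, adjusted p = 0.00188). It passed the filter through the WT libraries alone. PTCH1, the SHH receptor and a direct target, stood at 75.7 and 76 TPM in WT and 19.2 and 33.6 TPM in KO (log2 fold change -1.54 ± 0.29, adjusted p = 0.00154), and GLI2, an activator of the pathway, at 146 and 154 TPM in WT and 52.7 and 89.2 TPM in KO (log2 fold change -1.12 ± 0.21, adjusted p = 0.00137). In contrast, CDON, a co-receptor for SHH, stood at 42.1 and 34.6 TPM in WT and 175 and 108 TPM in KO (log2 fold change 1.82 ± 0.17, adjusted p = 1.03e-05), with no overlap between the genotypes. DISP1, which releases SHH from cells, and the co-receptor BOC rose by 0.84 and 0.45. SCUBE2 fell by 1.13, SUFU by 0.44 and SMO by 0.36. HHIP, an inhibitor and direct target of the pathway, was not called at 2.27 and 1.75 TPM in WT and 1.86 and 0.588 TPM in KO (log2 fold change -0.50 ± 0.40, adjusted p = 0.419). Of the 13 genes, all tested, 3 were called higher and 7 lower, beside 6.65% higher and 15.3% lower among all genes. With the libraries scaled by median ratio the numbers were 5 and 5; without KO 26 they were 2 and 2, without WT 1 they were 3 and 4, and without WT 2 they were 2 and 5. The call for PTCH1 did not hold without KO 26 (adjusted p = 0.0506), and that for SMO did not hold without KO 26 or WT 1 (highest adjusted p = 0.159). The call for BOC did not hold without KO 26 or WT 2 (highest adjusted p = 0.194), and that for SUFU did not hold without KO 26, WT 1 or WT 2 (highest adjusted p = 0.427). The call for SCUBE2 did not hold without KO 26, KO 48, WT 1 or WT 2 (highest adjusted p = 0.197). After scaling SUFU and SCUBE2 were not called, while GLI3, which mainly acts as the pathway's repressor, was called higher, at 34.2 and 31.2 TPM in WT and 45.2 and 41.1 TPM in KO.

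Besides WNT1, 5 WNT ligands rose and 1 fell. WNT10B, which lies next to WNT1 on chromosome 12 with the annotated 5′ ends 6690 bases apart on opposite strands, stood at 1.79 and 1.38 TPM in WT and 31.2 and 17.5 TPM in KO (log2 fold change 3.24 ± 0.34, adjusted p = 2.03e-05). WNT7B and WNT8B, ligands of the forebrain and diencephalon, rose from under 1 TPM in each WT library by 2.09 and 1.99, WNT2B rose by 0.95, and WNT7A fell by 0.90. The call for WNT7A did not hold without KO 26 or WT 1 (highest adjusted p = 0.133), and that for WNT2B did not hold without KO 26, WT 1 or WT 2 (highest adjusted p = 0.11). WNT7A was also not called with a pseudocount of 0.1. Of 13 tested genes for WNT ligands and their secretion, 6 were called higher and 1 lower, beside 6.65% and 15.3% of all genes, with a median of 0.95. WNT7B and WNT8B passed the filter through the KO libraries alone, so the count and the median describe the tested genes and support nothing further. WLS, the carrier of WNT ligands, was not called at 135 and 115 TPM in WT and 248 and 184 TPM in KO (log2 fold change 0.77 ± 0.30, adjusted p = 0.0736), and it was called after median-ratio scaling.

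Targets by which WNT signalling regulates itself rose. SP5, a direct target of WNT and TCF, stood at 1.78 and 0.782 TPM in WT and 21.8 and 30.3 TPM in KO (log2 fold change 3.59 ± 0.54, adjusted p = 0.000349). NKD2, an intracellular inhibitor of the pathway, stood at 4.7 and 3.75 TPM in WT and 14.7 and 17.6 TPM in KO (log2 fold change 1.72 ± 0.36, adjusted p = 0.00334), and LEF1, a WNT effector and target, at 25 and 18.3 TPM in WT and 46.3 and 44.7 TPM in KO (log2 fold change 1.06 ± 0.24, adjusted p = 0.00517). SP5 and NKD2 were higher in KO 48 than in KO 26, the reverse of WNT1. APCDD1, NKD1, NOTUM, TNFRSF19, ZNRF3 and AXIN2, feedback genes of the pathway, rose by 0.56 to 1.72. CCND1, a cyclin that many pathways drive, fell by 0.54. Of 13 tested feedback genes 9 were called higher and 1 lower, beside 6.65% and 15.3% of all genes, with a median of 0.94. This list too was chosen with earlier results of these data known, so its count and median support nothing further. Far fewer were called without KO 26 or without WT 2, and most of the calls did not hold in every fit that left out 1 library. The call for APCDD1 did not hold without WT 2 (adjusted p = 0.0564), and that for NKD1 did not hold without KO 26 (adjusted p = 0.0739). The calls for LEF1 and ZNRF3 did not hold without KO 26 or WT 2 (highest adjusted p = 0.0618 and 0.099), and the calls for TNFRSF19 and CCND1 did not hold without KO 26, WT 1 or WT 2 (highest adjusted p = 0.158 and 0.413). The calls for NOTUM and AXIN2 did not hold without KO 26, KO 48, WT 1 or WT 2 (highest adjusted p = 0.124 and 0.283). CCND1 was not called after scaling, nor were AXIN2 and NOTUM with a pseudocount of 0.1.

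Extracellular WNT antagonists went both ways. TPBG, a membrane glycoprotein that inhibits WNT signalling, stood at 37.3 and 33.4 TPM in WT and 604 and 255 TPM in KO (log2 fold change 3.44 ± 0.33, adjusted p = 1.15e-05), the highest level in KO of the 8 markers. SFRP4, a secreted frizzled-related protein that binds WNT ligands, stood at 41.6 and 30.3 TPM in WT and 0.937 and 2.28 TPM in KO (log2 fold change -3.86 ± 0.39, adjusted p = 1.79e-05). Its relatives SFRP1 (199 and 207 TPM in WT and 53.2 and 84.8 TPM in KO) and SFRP2 (254 and 228 TPM in WT and 69.3 and 119.6 TPM in KO) fell by 1.58 and 1.39, while FRZB, of the same family, rose by 1.18 (8.77 and 11.6 TPM in WT and 24.8 and 23.5 TPM in KO). These 5 calls held in each fit without 1 library. DKK3 and DRAXIN fell by 0.65 and 0.57. The call for DKK3 did not hold without KO 26 or WT 1 (highest adjusted p = 0.158), and that for DRAXIN did not hold without KO 26 or WT 2 (highest adjusted p = 0.193). Of 9 tested members 2 were called higher and 5 lower, beside 6.65% and 15.3% of all genes. Fewer were called lower without KO 26, WT 1 or WT 2.

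**Figure D2:**
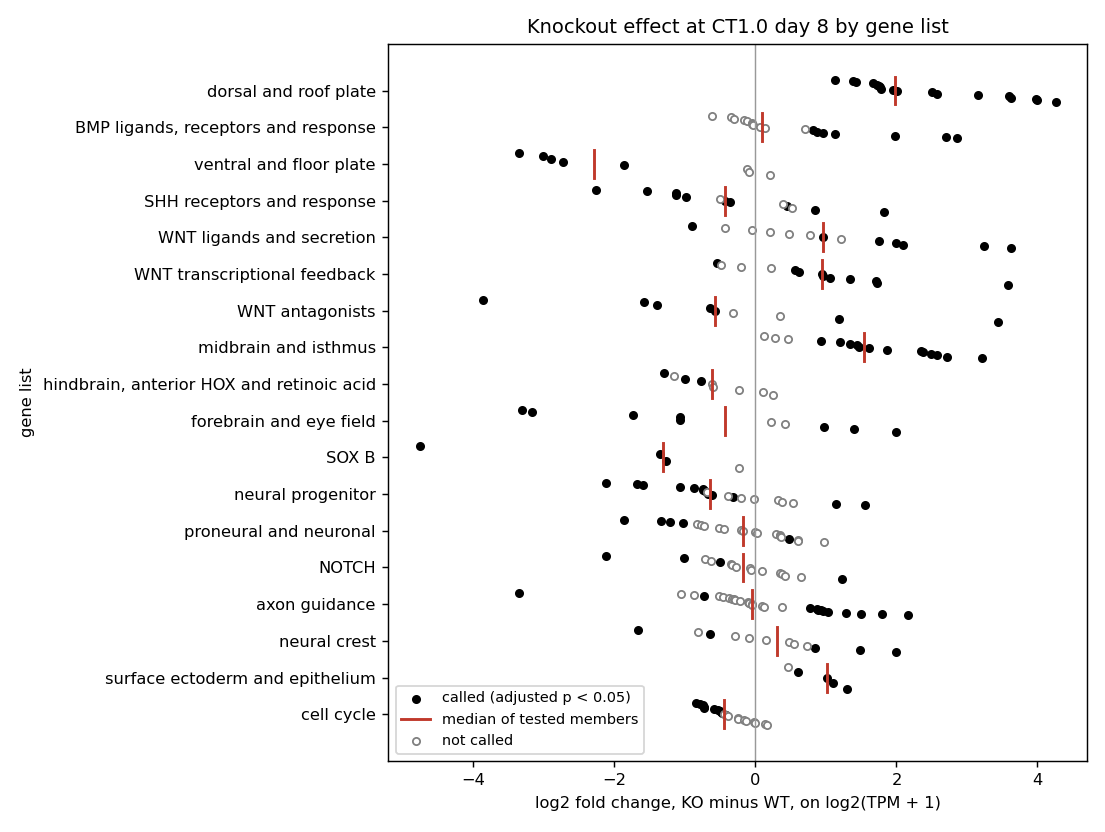
Log2 fold change (KO minus WT) of each tested member of 18 gene lists, black where called and open where not, with the list's median in red. Every point of the dorsal and roof plate list lies right of 0, the midbrain and isthmus list has its median at 1.54, and the ventral list its median at -2.30.

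Along the anterior to posterior axis, midbrain and isthmus genes rose. OTX2, the homeobox factor of forebrain and midbrain, stood at 6.19 and 5.99 TPM in WT and 82.6 and 50.7 TPM in KO (log2 fold change 3.21 ± 0.36, adjusted p = 3.6e-05). EN1, of the midbrain and isthmus, stood at 2.74 and 1.81 TPM in WT and 22.3 and 13.4 TPM in KO (log2 fold change 2.5 ± 0.38, adjusted p = 0.000349), and PAX8 at 3.72 and 3.13 TPM in WT and 29.3 and 26.9 TPM in KO (log2 fold change 2.72 ± 0.50, adjusted p = 0.00131). The WT pairs lay close together for these genes and far below KO. FGF17, a ligand of the isthmus, stood at 1.74 and 1.65 TPM in WT and 13.8 and 16.5 TPM in KO (log2 fold change 2.58 ± 0.25, adjusted p = 1.22e-05), and FGF8 at 2.38 and 1.77 TPM in WT and 6.14 and 8.61 TPM in KO (log2 fold change 1.44 ± 0.34, adjusted p = 0.00615). SPRY2, a feedback inhibitor that FGF signalling induces, rose by 1.47, and OTX1, DMBX1, ETV5, PAX2, EN2, IL17RD and ETV4 rose by 0.93 to 2.38. DUSP6, SPRY1 and SPRY4, also FGF feedback genes, were not called, DUSP6 at 42 and 30.4 TPM in WT and 38.2 and 49.9 TPM in KO. Of 16 tested, 13 were called higher and 0 lower, beside 6.65% and 15.3% of all genes. Their median was 1.54, beside -0.09 over all genes tested. The list was chosen with earlier results of these data known, so the count and the median describe the tested genes and support nothing further. Fewer of the 13 were called without KO 26 or without WT 2. The call for ETV4 did not hold without KO 26 (adjusted p = 0.0745), and that for PAX2 did not hold without WT 2 (adjusted p = 0.0713). The call for ETV5 did not hold without KO 26 or WT 2 (highest adjusted p = 0.0702).

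Of the hindbrain genes, 3 fell. RARB, a retinoic acid receptor and target, stood at 7.23 and 9.11 TPM in WT and 1.74 and 4.06 TPM in KO (log2 fold change -1.29 ± 0.41, adjusted p = 0.0308). MEIS2, a HOX cofactor, fell by 0.77. The calls for RARB and MEIS2 did not hold without KO 26, WT 1 or WT 2 (highest adjusted p = 0.323 and 0.35). Neither was called with a pseudocount of 0.1, and MEIS2 was not called after scaling. HOTAIRM1, a long noncoding transcript of the HOXA cluster, was not called at 114 and 161 TPM in WT and 147 and 178 TPM in KO (log2 fold change 0.25 ± 0.57, adjusted p = 0.81). HOXA2, singled out after its values were seen, was also not called, at 25.6 and 27.6 TPM in WT and 7.6 and 17 TPM in KO (log2 fold change -1.15 ± 0.53, adjusted p = 0.133): KO 26 was the lowest and KO 48 lay between it and WT. Of 21 listed genes 9 were tested, with 3 called lower and 0 higher beside 15.3% of all genes lower (0 lower without KO 26, 1 without WT 1 and 1 without WT 2), and the HOXA3, HOXA4, HOXB and HOXD3 genes were under 2 TPM in every library.

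Forebrain genes split. FEZF2, a forebrain zinc finger factor, stood at 16.3 and 23.4 TPM in WT and 0.614 and 1.67 TPM in KO (log2 fold change -3.31 ± 0.36, adjusted p = 2.33e-05). VAX2, a ventral eye homeobox factor, fell by 1.73, LHX2 by 1.08 and LHX5 by 1.07. In the other direction EMX2, a homeobox factor of the dorsal telencephalon, stood at 0.375 and 0.341 TPM in WT and 4.09 and 1.51 TPM in KO (log2 fold change 1.4 ± 0.34, adjusted p = 0.00854), and FEZF1 rose by 0.98. Counting WNT8B, 3 of 10 tested forebrain genes were called higher and 5 lower, beside 6.65% and 15.3% of all genes, with SIX3, SIX6, RAX and NKX2-1 under 1 TPM in all 4 libraries. EMX2 and WNT8B were under 1 TPM in both WT libraries and passed the filter through the KO libraries alone. The count of genes called higher therefore describes the tested genes and supports nothing further. Without KO 26 or without WT 1, 1 was called higher and 3 lower. The calls for LHX2 and EMX2 did not hold without KO 26 or WT 1 (highest adjusted p = 0.251 and 0.18), and that for FEZF1 did not hold without KO 26, WT 1 or WT 2 (highest adjusted p = 0.262). The call for LHX5 did not hold without KO 26, KO 48, WT 1 or WT 2 (highest adjusted p = 0.168). LHX5 was not called after scaling. Of the Iroquois factors, 1 of 4 tested was called lower and 0 higher, beside 15.3% and 6.65% of all genes: IRX5 fell by 0.95. The call for IRX5 did not hold without KO 26, WT 1 or WT 2 (highest adjusted p = 0.548). It was also not called after scaling or with a pseudocount of 0.1.

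General neural progenitor genes mostly fell. NES, the intermediate filament nestin, stood at 1025 and 893 TPM in WT and 214 and 410.4 TPM in KO (log2 fold change -1.69 ± 0.29, adjusted p = 0.000845), and VIM, vimentin, at 1599 and 1431 TPM in WT and 893 and 908 TPM in KO (log2 fold change -0.75 ± 0.12, adjusted p = 0.000549). HES5, a NOTCH target that holds progenitors undifferentiated, stood at 58.8 and 71.4 TPM in WT and 8.1 and 24.3 TPM in KO (log2 fold change -2.11 ± 0.58, adjusted p = 0.0154), and PAX6 at 34.1 and 39 TPM in WT and 6.53 and 19.4 TPM in KO (log2 fold change -1.6 ± 0.34, adjusted p = 0.00359). KO 48 lay between KO 26 and WT for NES, HES5 and PAX6, with no overlap between the genotypes. The call for PAX6 did not hold without KO 26 (adjusted p = 0.0979), and that for HES5 did not hold without KO 26, WT 1 or WT 2 (highest adjusted p = 0.242). HES5 was also not called with a pseudocount of 0.1. SOX4 fell by 1.07 and the cadherin CDH2 by 0.67, both called in every fit without 1 library. Against this, FABP7, a fatty acid binding protein of radial glia, rose from 37.9 and 42.5 TPM to 99.8 and 80.2 TPM (log2 fold change 1.14 ± 0.16, adjusted p = 0.000206), and DACH1 rose by 1.55. Of 20 tested, 2 were called higher and 11 lower, beside 6.65% and 15.3% of all genes, with 2 and 6 without KO 26 and again without WT 1, and 2 and 7 without WT 2.

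The neuronal genes TUBB3, DCX, STMN2 and INA fell. TUBB3, a neuronal tubulin, stood at 606 and 514 TPM in WT and 97.3 and 239 TPM in KO (log2 fold change -1.86 ± 0.32, adjusted p = 0.000747). DCX and STMN2, microtubule regulators of young neurons, fell by 1.21 and 1.34, and INA, a neuronal intermediate filament, by 1.02. TAGLN3 rose by 0.47, and MAP2 was not called at 151 and 112 TPM in WT and 138 and 127 TPM in KO. Of 21 tested neuronal and proneural genes 1 was called higher and 4 lower, near the shares of 6.65% and 15.3% of all genes; without KO 26 the counts were 0 and 1, without WT 1 they were 1 and 1, and without KO 48 they were 0 and 7. The calls for DCX, STMN2 and INA did not hold without KO 26 or WT 1 (highest adjusted p = 0.0723, 0.146 and 0.271), and that for TAGLN3 did not hold without KO 26, KO 48 or WT 2 (highest adjusted p = 0.214). In the NOTCH list, the fringe genes LFNG and MFNG, which modify the receptor, moved apart: LFNG fell by 1.01 and MFNG rose by 1.22, and NOTCH1 fell by 0.5. The call for MFNG did not hold without KO 48 or WT 1 (highest adjusted p = 0.114), and the calls for LFNG and NOTCH1 did not hold without KO 26, WT 1 or WT 2 (highest adjusted p = 0.212 and 0.0896). Of 16 tested NOTCH genes 1 was called higher and 3 lower, which is near the same 6.65% and 15.3%, with 1 and 0 without KO 26 or without WT 2, 0 and 0 without WT 1, and 1 and 5 without KO 48.

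UNC5C and DCC, receptors for netrin, rose while netrin-1 fell; the receptors UNC5B (2.44 and 2.06 TPM in WT and 2.08 and 1.93 TPM in KO, log2 fold change -0.11, adjusted p = 0.768) and NEO1 (63.5 and 64.8 TPM in WT and 55.7 and 54 TPM in KO, log2 fold change -0.22, adjusted p = 0.0519) were not called. UNC5C, a repulsive netrin receptor, stood at 3.19 and 2.05 TPM in WT and 18.4 and 12.3 TPM in KO (log2 fold change 2.17 ± 0.29, adjusted p = 0.000143), and DCC, the attractive netrin receptor, at 4.81 and 3.55 TPM in WT and 18.4 and 9.92 TPM in KO (log2 fold change 1.5 ± 0.34, adjusted p = 0.00547). The semaphorin SEMA3F stood at 7.15 and 8.42 TPM in WT and 30.8 and 28.3 TPM in KO (log2 fold change 1.8 ± 0.19, adjusted p = 2.2e-05). Both KO libraries exceeded both WT libraries for all 3. SEMA3A rose by 1.29 and the ephrin EFNB2 fell by 0.73. The calls for DCC, SEMA3A and EFNB2 did not hold without KO 26 (adjusted p = 0.122, 0.112 and 0.0648). Of 29 tested axon guidance genes, 10 were called higher and 2 lower, beside 6.65% and 15.3% of all genes, with a median of -0.05; without KO 26 the counts were 3 and 1, without KO 48 they were 8 and 5, and without WT 2 they were 6 and 2.

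Markers of other cell types changed in both directions. For the neural crest, which arises from the dorsal neural tube, the listed genes summed to 202 and 201 TPM in WT and 154 and 158 TPM in KO; 3 of 12 tested were called higher and 2 lower, beside 6.65% and 15.3% of all genes, and the counts were 1 and 1 without KO 26 or without WT 1, 3 and 1 without KO 48, and 0 and 1 without WT 2. TFAP2B stood at 6.79 and 3.27 TPM in WT and 20.2 and 23.9 TPM in KO (log2 fold change 1.99 ± 0.44, adjusted p = 0.00433), SOX10 at 0.593 and 0.381 TPM in WT and 3.82 and 2.56 TPM in KO (log2 fold change 1.48 ± 0.45, adjusted p = 0.0264), and NGFR, the p75 receptor, at 38.7 and 36 TPM in WT and 7.96 and 15.3 TPM in KO (log2 fold change -1.67 ± 0.28, adjusted p = 0.000654). The call for TFAP2B did not hold without WT 2 (adjusted p = 0.0562), and that for SOX10 did not hold without KO 26, WT 1 or WT 2 (highest adjusted p = 0.204). Neither was called with a pseudocount of 0.1. SOX10 was under 1 TPM in both WT libraries and passed the filter through the KO libraries alone. Surface ectoderm genes summed to 46 and 58 TPM in WT and 107 and 77.9 TPM in KO: KRT18 (7.18 and 11.1 TPM in WT and 23.3 and 17.6 TPM in KO) and KRT19 (4.99 and 5.63 TPM in WT and 16.7 and 12.6 TPM in KO), keratins of simple epithelia, rose by 1.1 and 1.3. Of 5 tested, 4 were called higher and 0 lower, beside 6.65% and 15.3% of all genes. Fewer were called higher without KO 26 or without WT 1, and not all 4 held in each fit that left out 1 library. KRT5 and KRT14 were listed at 0 in all 4 libraries. Mesoderm and endoderm genes summed to 18 to 31.9 TPM, with HAND1, SOX17 and GATA4 at 0 in all 4. Pluripotency genes had 1 of 6 tested called higher and 3 lower, beside 6.65% and 15.3% of all genes; after scaling 1 and 1 were called, without KO 26 0 and 0, without KO 48 0 and 3, without WT 1 1 and 0, and without WT 2 0 and 1. NANOG was at 0.0724 to 0.233 TPM, and POU5F1 stood at 2.69 and 1.48 TPM in WT and 3.41 and 5.51 TPM in KO (log2 fold change 0.83 ± 0.28, adjusted p = 0.0424). The call for POU5F1 did not hold without KO 26, KO 48 or WT 2 (highest adjusted p = 0.294). LIN28B, an RNA-binding protein, stood at 84.9 and 84.4 TPM in WT and 61.1 and 66.4 TPM in KO and fell by 0.41. DPPA4 and TERF1 fell by 0.22 and 0.28 and were not called after scaling. The calls for LIN28B, DPPA4 and TERF1 did not hold without KO 26 or WT 1 (highest adjusted p = 0.102, 0.388 and 0.217). The part of these cell types in the dorsal result was not tested.

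Cell cycle genes were lower or not called. MCM2, a subunit of the replicative helicase, stood at 128 and 119 TPM in WT and 62.1 and 80.4 TPM in KO (log2 fold change -0.79 ± 0.12, adjusted p = 0.000283), and the mitotic kinase PLK1 at 78.8 and 75.9 TPM in WT and 50.8 and 55.5 TPM in KO (log2 fold change -0.53 ± 0.11, adjusted p = 0.00328). MKI67, a proliferation marker, fell by 0.47, and no cell cycle gene was called higher. The calls for PLK1 and MKI67 did not hold without KO 26 (adjusted p = 0.0594 and 0.127). Of 21 tested, 11 were called lower and 0 higher, beside 15.3% of all genes lower, with 3 lower without KO 26, 6 without WT 1 and 7 without WT 2. Among stress genes the metallothioneins MT1X (61.5 and 44.7 TPM in WT and 7.36 and 13.8 TPM in KO) and MT2A fell by 2.26 and 1.69, and BNIP3, a gene that low oxygen induces, rose by 1.19 (26.2 and 28.5 TPM in WT and 54.7 and 74.3 TPM in KO). The call for MT2A did not hold without KO 26 or WT 1 (highest adjusted p = 0.218). In all 3 of 20 stress genes were called higher and 5 lower, beside 6.65% and 15.3% of all genes, with 1 and 2 without KO 26 or without WT 1. The 13 protein genes encoded by mitochondrial DNA took 6.85% and 6.74% of the TPM in WT and 5.42% and 5.48% in KO, with 9 called lower and 0 higher beside 15.3% of all genes called lower. The count was 6 lower after median-ratio scaling, 4 without KO 26 and 5 without WT 1.

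The naming rule by size brought in further genes outside these lists. ZFHX4, a zinc finger homeobox factor, stood at 2.74 and 1.91 TPM in WT and 48.1 and 22.1 TPM in KO (log2 fold change 3.35 ± 0.35, adjusted p = 2e-05). HIST1H1D, a linker histone, was at 0.729 and 0 TPM in WT and 18.9 and 8.11 TPM in KO, and ACTN3, an alpha-actinin, at 0.21 and 0.799 TPM in WT and 21.3 and 8.08 TPM in KO. All 3 rose in both KO libraries to 8.08 TPM or more. Among those that fell, NID2, the basement membrane protein nidogen 2, stood at 170.3 and 139 TPM in WT and 14.6 and 22.5 TPM in KO (log2 fold change -3.02 ± 0.33, adjusted p = 2.64e-05), and CAV1, the membrane protein caveolin 1, at 11.1 and 7.41 TPM in WT and 0.0335 and 0.332 TPM in KO (log2 fold change -3.1 ± 0.25, adjusted p = 2.62e-06). GRIK3, a kainate receptor subunit, stood at 18.2 and 17.8 TPM in WT and 0.254 and 2.31 TPM in KO, and SLC15A3, a peptide and histidine transporter, at 54.2 and 51.6 TPM in WT and 3.32 and 11 TPM in KO. The call for SLC15A3 did not hold without KO 26 (adjusted p = 0.0884). The long noncoding genes MIR217HG (85.8 and 67.3 TPM in WT and 2.73 and 15.9 TPM in KO) and LINC01314 (23.6 and 15.2 TPM in WT and 0.455 and 2.86 TPM in KO) fell by 3.28 and 3.08.

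The 2 KO libraries differed in the extent of the change. KO 26 was farther from the WT mean than KO 48 for 3744 of the 4422 called genes (84.7%) and for 65.7% of all genes tested. Among the lists this held for 16 of the 18 called dorsal genes, all 7 called BMP genes and 12 of the 13 called neural progenitor genes, but for 6 of the 10 called WNT feedback genes and 8 of the 13 called midbrain genes. SOX1 itself was lower in KO 26 than in KO 48, at 1.14 against 2.77 TPM, and the ribosomal protein share was higher there. Whether the numbers differ by clone, by culture or by library preparation cannot be told apart.

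**Figure D3:**
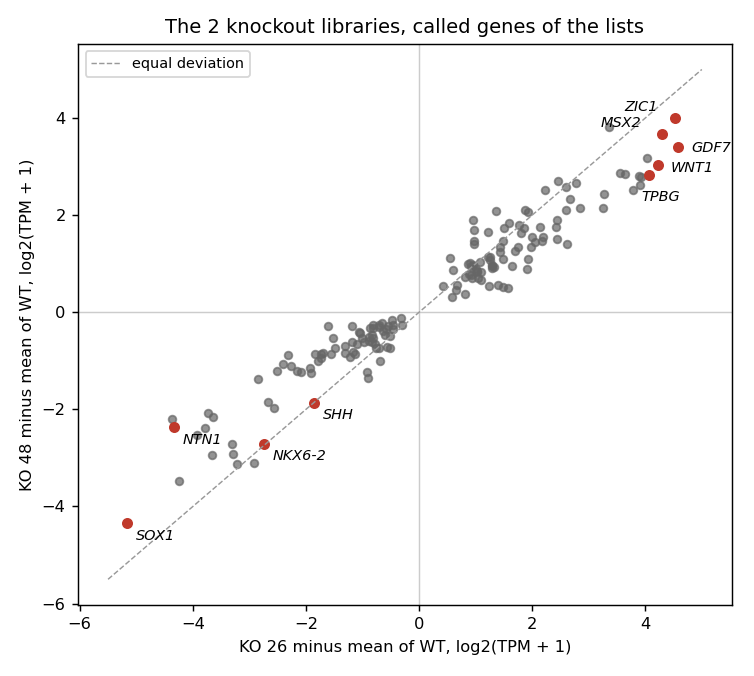
Deviation of KO 26 (x axis) and KO 48 (y axis) from the WT mean, on log2(TPM + 1), for the 163 called genes of the gene lists and of the naming rule, with SOX1 and the 8 markers in red. KO 26 is the farther one for 135 of the 163, seen as points below the dashed line of equal deviation on the right and above it on the left.

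The same knockout was then compared between CT1.0 day 8 and 3 other conditions, each with its own WT pair, by testing the difference between the KO effects. Differences are the effect at CT1.0 day 8 minus that in the other condition. The 3 differences share the 4 libraries of CT1.0 day 8. On day 4 of CT1.0, 2560 genes (12.7%) differed, 272 higher (1.35%) and 2288 lower (11.3%); the split turned to 835 higher and 385 lower after median-ratio scaling, and the 2 WT libraries of day 4 belong to 4 that stand apart in genes at 1 TPM, with 17694 to 18233 beside 18876 to 20338 in the other 24; their size factors of 0.818 to 0.926 in median-ratio scaling overlapped the 0.9196 to 1.14 of the others. Against CT0.4 day 8, 1526 genes (7.57%) differed, 495 higher (2.45%) and 1031 lower (5.11%), and after scaling 655 and 496. Against IWP2 day 8, 1157 genes (5.74%) differed, 324 higher (1.61%) and 833 lower (4.13%), and after scaling 423 and 468. Without KO 26 of CT1.0 day 8 the 3 counts were 1011, 270 and 187; without WT 1 they were 921, 369 and 242; without KO 48 the last 2 were 2565 and 2562, and without WT 2 they were 1016 and 721.

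SOX1 expression in WT differed between the conditions. It stood at 84.1 and 98 TPM at CT1.0 day 4, 11.3 and 15.7 TPM at CT0.4 day 8, and 10.6 and 9.9 TPM at IWP2 day 8, beside 72.1 and 79.4 TPM at CT1.0 day 8. KO levels were 0.705 to 3.08 TPM in these 3 conditions. Wild-type cells thus had most SOX1 in the CT1.0 cultures, where its fall in KO was also deepest: the effect was -2.16 on the log2 scale relative to that at CT0.4 (adjusted p = 0.0209, and 0.127 without KO 26) and -3.0 relative to that at IWP2 (adjusted p = 0.00476). It was not called as different from day 4 (0.37 ± 0.52, adjusted p = 0.682). KO levels were low in each condition, so the size of the fall on the log2 scale was bounded by the WT level.

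OTX2, WNT1 and TPBG were already higher in KO on day 4 of CT1.0, with effects of 3.49 ± 0.36, 2.67 ± 0.37 and 2.33 ± 0.33 (adjusted p = 1.82e-05, 0.000132 and 0.000146). OTX2 stood at 11.8 and 4.55 TPM in WT and 151 and 58.5 TPM in KO on day 4, WNT1 at 5.59 and 4.10 against 50.5 and 25.6 TPM, and TPBG at 76.3 and 54.5 against 504 and 212 TPM. For these 3 the KO effect was not called as different between the days, with differences of -0.28 ± 0.51, 0.96 ± 0.52 and 1.11 ± 0.46 (adjusted p = 0.76, 0.237 and 0.118). At CT0.4 day 8 these genes were high in both genotypes: WNT1 stood at 547 and 420.1 TPM in WT and 632 and 511 TPM in KO, and OTX2 at 413 and 403 against 353 and 359 TPM. The KO level of WNT1 at CT1.0 day 8, 132 and 57.6 TPM, lay between the WT levels of CT1.0 and CT0.4. At IWP2 day 8 OTX2 was likewise high in both genotypes at 226 to 256 TPM, whereas WNT1 reached at most 0.396 TPM in any library. The difference in KO effect from CT0.4 was 3.41 for OTX2, 3.39 for WNT1 and 3.19 for TPBG (adjusted p = 0.00197, 0.00228 and 0.00157), and from IWP2 3.16, 3.48 and 3.37 (adjusted p = 0.00342, 0.00227 and 0.00169).

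Part of the dorsal and BMP change was present on day 4 of CT1.0. PAX3, LMX1B, RSPO2 and ID1 were called higher in KO there, with effects of 2.55, 1.7, 1.77 and 1.69. Of 18 tested dorsal genes 5 were called higher and 0 lower on day 4. Of 18 tested BMP genes 5 were called higher and 2 lower, beside 3506 and 755 of all 20167 genes. ZIC1, GDF7, MSX2 and BMP4, in contrast, rose in KO on day 8 and were not called on day 4. On day 4 of CT1.0 all 4 reached at most 1.65 TPM in any library, and the KO effect on day 8 was higher by 4.16, 3.99, 3.09 and 2.93 on the log2 scale (adjusted p = 0.00114, 6.46e-05, 0.00144 and 0.00668). At CT0.4 day 8 GDF7 stood at 76.7 and 54.1 TPM in WT and 96.6 and 85 TPM in KO, ZIC1 at 334 and 221 against 433 and 397 TPM, and MSX2 at 39.4 and 17.8 against 52.8 and 60.1 TPM. WT cells of CT0.4 thus already carried all 3 genes. Their ranges for GDF7 and MSX2 overlapped those of KO at CT1.0 day 8, and their ZIC1 levels lay above it. The effect at CT1.0 exceeded that at CT0.4 by 3.65 for ZIC1, 3.51 for GDF7 and 2.93 for MSX2 (adjusted p = 0.00336, 0.000337 and 0.00278); for BMP4 the difference of 1.79 ± 0.59 was not called (adjusted p = 0.0744). At IWP2 day 8 GDF7 reached at most 0.093 TPM in any library and ZIC1 stood at 39 to 57.6 TPM in all 4, and the differences were 3.93, 3.92, 3.93 and 3.25 for ZIC1, GDF7, MSX2 and BMP4 (adjusted p = 0.00245, 0.00042, 0.0007 and 0.00658).

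NTN1 and NKX6-2 had their highest WT levels of these 4 conditions at CT1.0 day 8. For SHH this rested on WT 2 alone, since WT 1 lay below the highest SHH level of the other conditions. NTN1, at 34.9 and 32.7 TPM in WT at CT1.0 day 8, was at 1.31 and 1.68 TPM in WT on day 4, 0.594 and 1.83 TPM at CT0.4 and 7.4 and 7.36 TPM at IWP2. The KO effect was -3.63, -2.9 and -3.33 relative to these 3 conditions (adjusted p = 0.00264, 0.013 and 0.00733; that against CT0.4 was 0.0535 without WT 1). NKX6-2 reached at most 0.629 TPM in any library of the 3 conditions, with differences of -2.35, -2.52 and -2.69 (adjusted p = 0.00394, 0.0042 and 0.00318). SHH reached at most 1.64 TPM there, and its differences of -1.36, -1.56 and -1.85 were not called (adjusted p = 0.106, 0.0885 and 0.0552). At such low WT levels a fall of the size at CT1.0 day 8 could not have been seen. That holds for NKX6-2 and SHH in all 3 conditions, and for NTN1 on day 4 and at CT0.4. There the differences cannot tell a weaker KO effect from a low WT level. At IWP2 the WT level of NTN1 left room for a fall, though not for the full size of that at CT1.0 day 8. The KO effect on NTN1 at IWP2 was -0.02 ± 0.44. DBX1 behaved otherwise on day 4, with 11 and 8.07 TPM in WT and 28.6 and 18.4 TPM in KO (effect 1.2 ± 0.44, adjusted p = 0.064); its effect on day 8 was -4.1 relative to day 4 (adjusted p = 0.00144) and -2.51 relative to IWP2 (adjusted p = 0.0284, and 0.176 without KO 26), while that relative to CT0.4, -1.31 ± 0.63, was not called (adjusted p = 0.208).

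**Figure D4:**
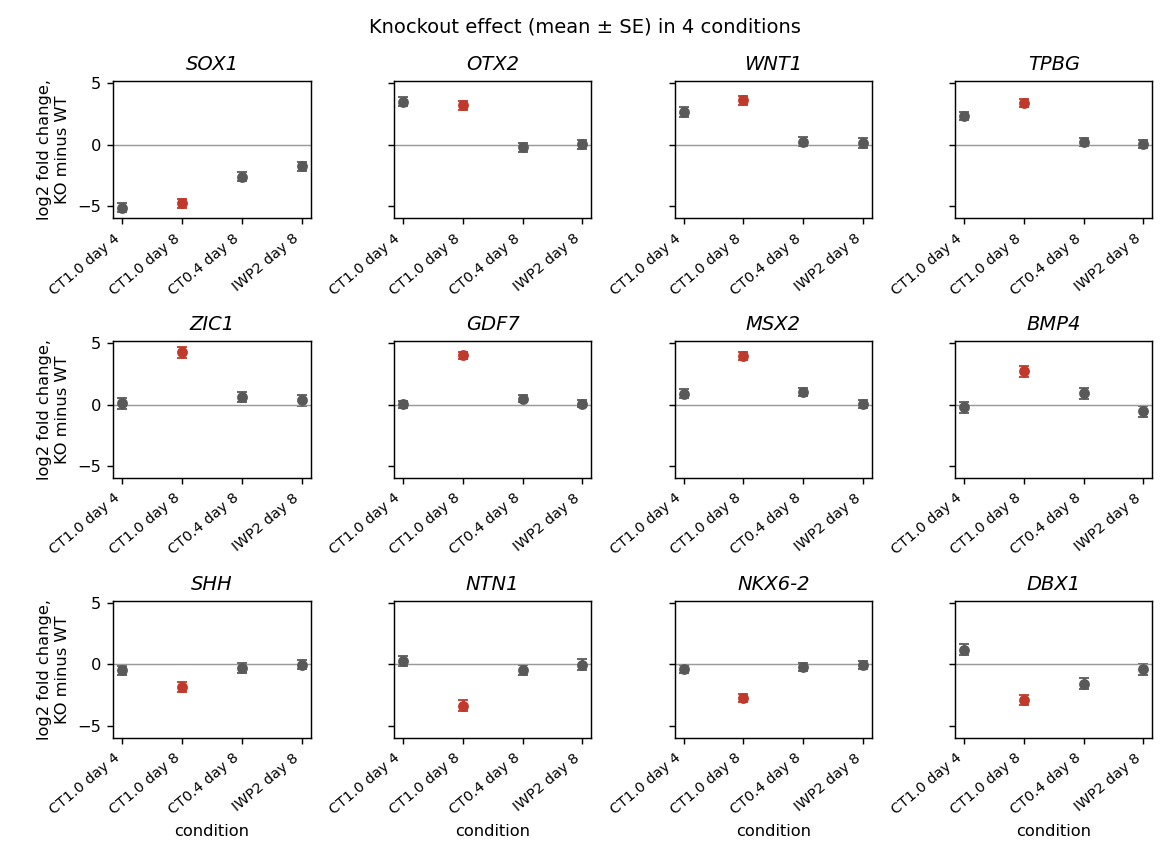
KO minus WT on log2(TPM + 1) with its standard error in 4 conditions for 12 genes, with CT1.0 day 8 in red and 2 libraries per genotype in each condition. OTX2, WNT1 and TPBG are raised on both days of CT1.0, ZIC1, GDF7, MSX2 and BMP4 on day 8, and NTN1, NKX6-2 and DBX1 are lowered on day 8.

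By list, 11 of the 18 tested dorsal genes had a higher KO effect at CT1.0 day 8 than on day 4, 13 than at CT0.4 day 8 and 16 than at IWP2 day 8, with 0 lower in each. The 16 tested midbrain genes had 3, 11 and 7 higher, and 1 lower than on day 4. Of the 13 tested WNT feedback genes 0 were higher than on day 4 and 1 was lower by limma, beside 3 higher than at CT0.4 and 1 than at IWP2. The ventral list had 5 of 8 lower than on day 4, 2 than at CT0.4 and 4 than at IWP2, though low WT levels there, as for NKX6-2, left no room for a fall. Of 82 tested ribosomal protein genes 56, 41 and 12 were higher. These counts read against 1.35%, 2.45% and 1.61% of all genes called higher and 11.3%, 5.11% and 4.13% called lower. The filter used the CT1.0 day 8 libraries only. ZIC4, LMX1A, PAX7 and RSPO3 passed it through KO alone, which favours a higher effect in that condition. SHH and NKX6-2 passed it through WT alone, which favours a lower effect there. The counts by list therefore describe the tested genes and support nothing further.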

How the data were processed

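Poly(A) RNA of H9-derived cells was sequenced, and the values used are gene-level TPM as deposited by the authors in a table of 28 libraries. Per the submitters' processing notes, CASAVA 1.7, Salmon 0.8.2 and the hg38 build were used; the role of each and the annotation release are not stated. Libraries were grouped by genotype, culture and day from the labels. Every value column matched a library's label (0 left over). TPM holds no read depth, so no count model and no counting interval was possible, and the number of libraries limits the precision. Read length and sequencer are not tied to single libraries, so batch could not be fitted.

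Values were taken as log2(TPM + 1) and fitted with limma 3.58.1 (R 4.3.3) to 14 group means over all 28 libraries, with an intensity trend and 14 residual degrees of freedom. Genes at 1 TPM or more in at least 2 of the 4 libraries of CT1.0 day 8 were tested (20167), with Benjamini-Hochberg adjustment over all of them, and called at an adjusted p under 0.05. Differences between KO effects were contrasts of the same fit. Tests were two-sided. On simulated data for this comparison, with 20167 genes, log2 changes of 1 and of 2 were given to 100 genes each. Of these, 68% and 93% were called, and 5.29% of calls were false. The changed genes had a mean of at least 2 on the log2 scale. The noise was normal and independent between libraries and genes, with no shift of a whole library. Far fewer genes were changed than were called in the data, so these rates need not hold for the data. Tables and figures were made with Python 3.11.15.

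The text names SOX1, 8 markers, the 12 highest and 12 lowest called genes by log2 fold change with a mean of at least 5 TPM in either genotype and no overlap, and members of 22 gene lists: called members, and up to 3 uncalled ones of high level for each list, with exceptions stated. The markers and lists were chosen with earlier results of these data known. Counts and medians of the lists therefore describe the tested genes and support nothing further. Alternatives were another pseudocount, other filters, median-ratio scaling, fewer libraries in the fit, a replicate block, a fold threshold and another variance model. Leaving out the 4 WT day 4 CT libraries and testing protein-coding genes alone were added after seeing the data. Promoter windows came from RefSeq (GRCh38.p14) and gene positions from GENCODE 29. Some genes that the naming rule selects are not reported here.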

Additional observations from a re-analysis of the deposited data

Results flagged for a closer look

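A difference between conditions in the KO effect, tested by limma, drew attention to the results here; each is the effect at CT1.0 day 8 minus that in the other condition, on log2(TPM + 1). Over all genes, 2560 differed from CT1.0 day 4, 1526 from CT0.4 day 8 and 1157 from IWP2 day 8.

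The dorsal genes ZIC1, GDF7 and MSX2 and the ligand BMP4 had a more positive effect at CT1.0 day 8. Relative to CT1.0 day 4 the difference was 4.16 for ZIC1, 3.99 for GDF7, 3.09 for MSX2 and 2.93 for BMP4. Relative to CT0.4 day 8 it was 3.65 for ZIC1, 3.51 for GDF7 and 2.93 for MSX2. Relative to IWP2 day 8 it was 3.93 for ZIC1, 3.92 for GDF7, 3.93 for MSX2 and 3.25 for BMP4. WNT1, TPBG and OTX2 differed by 3.39, 3.19 and 3.41 from CT0.4 day 8 and by 3.48, 3.37 and 3.16 from IWP2 day 8.

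SOX1, NTN1, NKX6-2 and DBX1 had a more negative effect. In conditions with low WT levels of a gene, a fall of the size at CT1.0 day 8 could not have been seen on this scale. The difference for SOX1 was -2.16 from CT0.4 day 8 and -3.0 from IWP2 day 8. For NTN1 it was -3.63, -2.9 and -3.33, and for NKX6-2 -2.35, -2.52 and -2.69, from CT1.0 day 4, CT0.4 day 8 and IWP2 day 8 in that order. DBX1 differed by -4.1 from CT1.0 day 4 and by -2.51 from IWP2 day 8. Every one of these single-gene differences was also called after median-ratio scaling.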

How the results depend on the processing

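For the comparison at CT1.0 day 8 and for the KO effect differences from CT1.0 day 4, CT0.4 day 8 and IWP2 day 8, in that order, a fit of the compared libraries alone called 0 (5382 at an unadjusted p under 0.05), 265, 7 and 9 genes. Day 8 libraries alone called 425 and 178 genes for the last 2. A further requirement of a log2 change of at least 1 left 1112, 1005, 694 and 543. Median-ratio scaling left 1220 for the difference from CT1.0 day 4. Leaving out 1 library of CT1.0 day 8 gave 1075 to 4522, 921 to 2866, 270 to 2565 and 187 to 2562; where that leaves 1 library in a group, it is assumed to vary like the other groups. Under the other alternatives run, each count stayed within 1.5 times its value. Of 137 genes followed through the alternatives, 52 lost their call without KO 26, 30 without WT 2, 28 without WT 1 and 8 without KO 48, 13 with a pseudocount of 0.1 and 131 with the 4 libraries alone; none changed sign in any alternative run. With the library number as a replicate block within each genotype, the counts were 4556, 2762, 1815 and 1513, and 1 named gene, CHRD, lost its call; KO and WT share no numbers. The log2 difference between the 2 libraries of a group (26 minus 48, or 1 minus 2) was correlated between conditions, over genes with a mean of at least 10 TPM. The correlation was over 0.1 in 8 of 21 condition pairs in KO (3 of the 6 that involve CT1.0 day 8) and 0 of 21 in WT. Since not every pair was over 0.1, the numbers were not taken to pair the libraries. Depth is unknown, so low TPM values carry an unknown counting error.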

Other observations

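In the remaining groups of the series, which the comparisons above do not use, the marker genes stood as follows. In undifferentiated stem cells SOX1 was at 0.264 and 0.177 TPM in WT and 0.024 and 0.0511 TPM in KO. OTX2 was at 65.8 and 55.7 TPM there in WT and 71.2 and 57.2 TPM in KO, so the WT levels at CT1.0 day 8 (6.19 and 5.99 TPM) were below those of stem cells. At CT0.4 day 4 TPBG stood at 671 and 699 TPM in WT and 892 and 820 TPM in KO, and WNT1 at 7.3 and 9.55 TPM in WT and 32 and 17.1 TPM in KO. At IWP2 day 4 ZIC1 stood at 7.8 and 10.7 TPM in WT and 6.55 and 14.1 TPM in KO, with the genotypes overlapping. SHH was listed at 0 in all stem cell and CT0.4 day 4 libraries. No test was made of these values.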
